A study of Mus musculus with 45 samples.

Results

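The comparison described here was that of organoids lacking the receptor LGR5 (KO) with wild-type organoids (WT), both grown with the highest supplied dose, 100 ng/ml, of Rspondin 3 (Rspo3). It held 5 RNA libraries of the 45 in the series, 3 from WT cultures (WT10, WT5 and WT30) and 2 from KO cultures (KO7 and KO2), chosen by genotype and medium and not by any measured value. All genes outside chromosomes X and Y were described, 48305 of the 52636 in the table. Its values were CPM, the reads of a gene scaled to the total of its library, and 16731 of these genes reached 1 CPM in at least 2 of the 5 libraries and were tested.

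The series held 30 libraries of organoids and 15 of sorted cells, and only the organoids are described here. Each culture had been started from the small intestine of 1 embryo at E17.5 and was at passage 4, and each was split over Rspo1, Rspo2 or Rspo3, at 100 or 5 ng/ml. The KO embryos carried the Lgr5-DTReGFP cassette, a diphtheria toxin receptor and GFP fusion knocked into Lgr5 that disrupts the gene, on both alleles, and the WT embryos did not. All cultures shared a Matrigel support and a medium with EGF and noggin, so that the Rspondin was the only added agent that differed between media. With 2 KO embryos, each KO culture is 1 of the 2 biological replicates of its genotype.

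LGR5 is a receptor of intestinal stem cells and is itself a target gene of Wnt signalling. Rspondins bind LGR4, LGR5 or LGR6 and hold back the ubiquitin ligases RNF43 and ZNRF3, which otherwise clear Wnt receptors from the cell surface, so that added Rspondin strengthens the Wnt signal on which intestinal organoids depend. In the fetal gut the epithelium also holds cells of a fetal or regenerative type, marked by genes such as Clu and Ly6a, which the adult gut turns on again after injury.

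Sequencing depth, as read from the steps in the deposited CPM values, was 22469220 to 27174403 reads per library, so that 1 read was worth 0.0368 to 0.0445 CPM. Over the genes tested, pairs of libraries correlated with Pearson's r of 0.967 to 0.993 on the log2 scale, and 107 to 442 genes differed more than 2-fold between a pair of WTs, against 286 to 1069 between a KO and a WT and 663 between the KOs. The genotypes differed in sex: Xist, the X-inactivation RNA, was at 2489, 1880 and 2128 CPM in WT10, WT5 and WT30 and at 39.1 and 0.45 CPM in KO7 and KO2, while the Y-linked Ddx3y was at 0 in the WTs and at 58.8 and 69.3 CPM in the KOs. All WTs were thus female and both KOs male, so that genotype and sex cannot be told apart, for genes outside X and Y too. Of 15 epithelial markers, 3 (20%) had both KOs above all WTs and 1 (6.67%) had them below, beside 17.3% and 12.5% of all genes tested. None of the 15 was called. Epcam, an adhesion molecule of epithelia, was at 614, 691 and 668 CPM in the WTs and 559 and 710 CPM in the KOs, and Cdx2, which specifies intestinal epithelium, at 228, 211 and 269 CPM against 195 and 225 CPM. Of the markers of other cell types, Cdh5 of endothelium and Dcn and Lum of stroma were at 0 in all 5 libraries, Col1a1 was at most 0.3 CPM and Ptprc of leukocytes at most 0.2 CPM. The summed level was 107 to 137 CPM in the WTs against 120 and 178 CPM in the KOs for the mesenchymal list, of which Fbln1 made up most, 26.5 to 33.5 against 24.0 and 29.2 CPM for the immune list, 3.60 to 5.40 against 4.7 and 5.2 CPM for the endothelial list, and 13.8 to 22.4 against 15.4 CPM in both KOs for the neural list. None of their 15 tested members was called.

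Lgr5 itself, on chromosome 10 (115450311 to 115587780, minus strand, GRCm38), did not differ beyond the spread between cultures at this dose. Its RNA was at 50.7, 48.9 and 39.4 CPM in WT10, WT5 and WT30 and at 35.2 and 41.3 CPM in KO7 and KO2. KO2 lay within the range of the WTs and KO7 just below it. The difference was -0.27 on the scale of log2(CPM + 1), with a standard error of 0.15 and an adjusted p of 0.528 (limma). Where along the gene the counted reads lay is not given in the sources used here, so this level does not check the genotype labels. An RNA annotated inside the Lgr5 region on the opposite strand, A930009A15Rik, was at 3.15, 2.5 and 1.25 CPM in the WTs and at 0.25 and 0.05 CPM in the KOs, a difference of -1.48 (limma adjusted p = 0.201, and 0.0298 in a fit of all 30 organoid libraries with culture as a block, which called it). With the strand of counting not given, its reads and those of Lgr5 cannot be told apart. Around the targeted gene, 87 other genes within 10 Mb on either side were tested and none was called, and 31 of them (35.6%) had KO and WT libraries that did not overlap, against 29.8% of all genes tested. Among these neighbours, chosen after their values were seen, Nap1l1, a histone chaperone, was at 104, 103 and 99.8 CPM in the WTs and 149 and 157 CPM in the KOs (limma adjusted p = 0.150), and Tspan8, a tetraspanin of epithelia, at 174, 193 and 169 CPM against 244 and 250 CPM.

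A total of 3 genes outside X and Y were called higher in KO organoids at a false discovery rate of 0.05, which is 0.0179% of those tested, and 0 were called lower, by limma on log2(CPM + 1). The genes were Tff1, Dpcr1 and Gm15318, and each was under 1 CPM in every WT, at several CPM in both KOs, and past the filter on low values only through the KO libraries. For such genes the filter itself requires both KOs to lie above all WTs. At an unadjusted p under 0.05 there were 1287 genes higher (7.69%) and 644 lower (3.85%). Both KO libraries lay above all 3 WTs for 2892 genes (17.3%) and below them for 2090 genes (12.5%). The number of calls rested on single cultures. The 2 genes called higher without WT5 were not Tff1, Dpcr1 or Gm15318 (limma adjusted p = 0.0922, 0.134 and 0.108 there). Without WT5 there were 2 genes higher, without WT10, WT30 or KO7 there were 0, and 1 gene was lower without WT30 or KO7. Without KO2 there were 207 higher and 60 lower, in a fit that takes KO7 alone to vary as the WTs did.

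Tff1 encodes a trefoil peptide secreted with mucus, best known from the surface of the stomach. It was at 0.50, 0.20 and 0.70 CPM in WT10, WT5 and WT30 and at 6.05 and 7.55 CPM in KO7 and KO2. Every KO value was thus far above every WT value. The mean rose from 0.467 ± 0.252 CPM (SD, n = 3) to 6.80 ± 1.06 CPM (SD, n = 2), a ratio of 14.6 and a difference of 2.42 on the log2(CPM + 1) scale (SE 0.20, limma adjusted p = 0.0280). The gene lies at chromosome 17, 31161395 to 31165277 (minus strand). Gm15318, an antisense RNA at chromosome 17, 31152752 to 31163054 (plus strand), overlaps Tff1 and gave nearly the same values, 0.55, 0.25 and 0.80 CPM in the WTs and 6 and 7.7 CPM in the KOs (limma adjusted p = 0.0350). Whether counting used the strand is not given in the sources used here, so reads of the pair cannot be told apart and the 3 calls may stand for 2 loci.

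Dpcr1, listed as Mucl3 in newer annotation and coding for a mucin-like membrane protein, was the other call. It was at 0.65, 0.40 and 0.15 CPM in the WTs and at 5.8 and 5.6 CPM in the KOs. The KO values were close to each other and each was over 8 times the highest WT. The mean rose from 0.400 ± 0.250 CPM (SD, n = 3) to 5.70 ± 0.141 CPM (SD, n = 2), a ratio of 14.2 and a difference of 2.27 (SE 0.19, limma adjusted p = 0.0280). The gene lies at chromosome 17, 35635752 to 35643695 (minus strand). Of the 16731 genes tested, 156 were under 1 CPM in every WT as these were, and WT values under 1 CPM rest on few reads. The adjusted p depended on the settings. Over the alternatives run it was 0.0323 to 0.177 for Tff1 and 0.0180 to 0.249 for Dpcr1, and both calls were lost with a pseudocount of 0.1, when every gene with a nonzero value was tested, when X and Y were left out before the fit, and when any 1 of WT10, WT5, WT30 or KO7 was left out. Tff1 was also lost in a fit of all 30 organoid libraries without a culture block (limma adjusted p = 0.0756).

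The promoter of Dpcr1 is shown because this gene is one of the calls, and that of Sp5 because Sp5 is a direct target of Wnt signalling taken up below. Both are the 250 bases before the RefSeq start site in GRCm38.p6, written 5′ to 3′ on the strand of the gene, with a motif match in capitals. In Dpcr1 (chr17:35643696-35643945, minus strand) the capitals mark a cyclic AMP response element, TGACGTCA, which reads the same on both strands, starts 47 bases before the start site and was looked for only after the sequence had been read. In Sp5 (chr2:70474673-70474922, plus strand) they mark a TCF/LEF motif, CTTTGAT, 104 bases before the start site. Of 32851 such windows, 508 (1.55%) held the first motif and 2457 (7.48%) held CTTTGAT or CTTTGAA on either strand. A match describes the letters and is not evidence of binding.
Dpcr1: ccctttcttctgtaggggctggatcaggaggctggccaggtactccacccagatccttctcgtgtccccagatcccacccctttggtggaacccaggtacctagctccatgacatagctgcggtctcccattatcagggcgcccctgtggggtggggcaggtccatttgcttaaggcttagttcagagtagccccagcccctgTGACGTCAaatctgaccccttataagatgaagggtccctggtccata
Sp5: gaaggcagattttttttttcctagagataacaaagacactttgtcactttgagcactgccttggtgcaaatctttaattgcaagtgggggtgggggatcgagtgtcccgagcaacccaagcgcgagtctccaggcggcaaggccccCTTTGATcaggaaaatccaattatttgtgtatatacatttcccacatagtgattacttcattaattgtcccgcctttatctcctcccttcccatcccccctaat

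**Figure D1:**
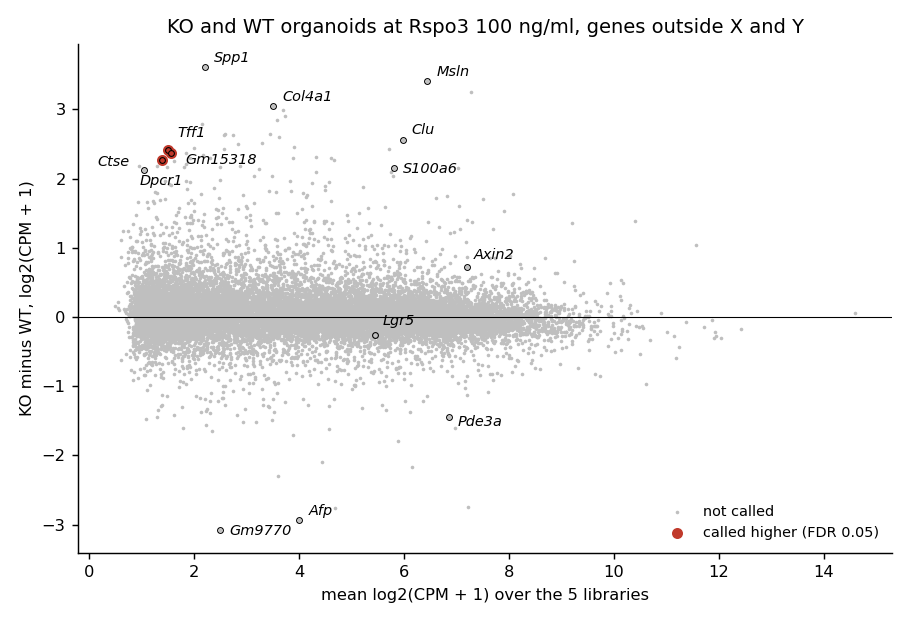
KO minus WT against mean level, both on the log2(CPM + 1) scale, for the 16731 genes tested outside X and Y in organoids at 100 ng/ml Rspo3, each point a gene. The 3 called genes (red) lie at 2.27 to 2.42 at a low mean level, while Clu, Msln and Col4a1 lie as high or higher without passing the test and Lgr5 lies at -0.27.

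At a false discovery rate of 0.1 the limma calls numbered 6 higher and 1 lower, which added Ctse, Clu, S100a6 and the pseudogene Gm9770. Ctse codes for cathepsin E, an aspartic protease abundant in the stomach. It was at 0.35, 0.10 and 0 CPM in the WTs and 3.3 and 4.8 CPM in the KOs, and it too passed the filter only through the KOs (limma adjusted p = 0.0561). Gm9770, on chromosome 10, was the only gene lower in the KOs at that rate, at 16.45, 15 and 7.25 CPM against 0.70 and 0.45 CPM (limma adjusted p = 0.0961). Among other genes with wide gaps, named here after their values were seen, Krt4, a keratin of stratified epithelium, was at 2.5, 2.55 and 0.90 CPM in the WTs and 16.8 and 16.7 CPM in the KOs, and Psca, a membrane antigen, at 1.75, 1.3 and 0.35 CPM against 16.7 and 10.4 CPM. On the other side, Afp, the fetal serum protein alpha-fetoprotein, was at 21.6, 20.4 and 96.8 CPM in the WTs and 2.1 and 6.2 CPM in the KOs, where WT30 set much of the WT mean. Pde3a, a phosphodiesterase, was at 154, 143 and 229 CPM in the WTs and 59.4 and 64.9 CPM in the KOs. None of these passed at 0.05 in the limma fit of 5 libraries. The limma fit of 30 libraries with the block called Ctse (adjusted p = 9.25e-04), Krt4 (5.34e-04), Psca (0.00815), Afp (0.00266), Pde3a (9.25e-04) and Gm9770 as well.

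Genes of the fetal and regenerative epithelium had the highest median difference of the 37 gene lists examined, a rank that KO7 set. With KO2 alone the median was 0.55, below those of the cholesterol synthesis genes (0.57), the alpha-defensins (1.04) and the gastric markers (1.52). The gastric median came from 3 tested genes, 2 of them past the filter only through the KO libraries. Of 34 listed fetal and regenerative genes, 33 lay outside X and Y and 29 were tested. Both KOs lay above all WTs for 16 of the 29 (55.2%, against 17.3% of all genes) and below them for 0, and the median difference was 1.30 against 0.02 over all genes tested. None of the 29 was called by limma in the 5 libraries, 16 were higher at an unadjusted p under 0.05, and 1 had under 1 CPM in every WT. A limma fit of all 30 organoid libraries, with culture as a replicate block, called 10 of them higher and 0 lower, beside 181 genes higher (1.08%) and 36 lower (0.215%) over all genes tested. That fit borrows its estimate of spread from the same 5 cultures in the other media. It takes 1 correlation, 0.342, for all genes, while deviations of the same culture in 2 media correlated at 0.322 to 0.689. Repeated libraries of a culture thus count in part as replicates, and its p-values may be too small. A change in the number of cells of a type and a change in RNA per cell cannot be told apart in bulk RNA.

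Clu, coding for the chaperone clusterin and a marker of revival stem cells, was at 40.1, 26.8 and 24.7 CPM in WT10, WT5 and WT30 and at 219 and 149 CPM in KO7 and KO2. Both KOs were above every WT, and the difference was 2.56 (SE 0.25, limma adjusted p = 0.0561, and 0.00780 with the 30 libraries and the block). S100a6, a calcium-binding protein, was at 34.3, 36.2 and 21.4 CPM in the WTs and 152 and 122 CPM in the KOs (difference 2.15, limma adjusted p = 0.0961). Ly6a, known as Sca-1 and used to mark regenerating epithelium, was at 2.25, 1.85 and 2.15 CPM in the WTs and 22.4 and 7.2 CPM in the KOs, with KO7 about 3 times KO2. Msln, coding for mesothelin, reached 693 and 184 CPM in KO7 and KO2 against 62.6, 31.5 and 17.45 CPM in the WTs. Spp1, coding for the secreted phosphoprotein osteopontin and named after its values were seen, was at 0.50, 1.9 and 0.10 CPM in the WTs and 26.7 and 14.3 CPM in the KOs, the largest difference of the list at 3.61. None of these genes overlapped between the groups and none passed the limma test at 0.05 in the 5 libraries, while the 30-library limma fit with the block called each of them (adjusted p = 6.55e-04 for Spp1 to 0.0412 for S100a6). KO7 carried more of the difference than KO2. The median of the list was 1.96 for KO7 against the WT mean and 0.55 for KO2 against it, where all genes gave -0.01 and 0.05.

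**Figure D2:**
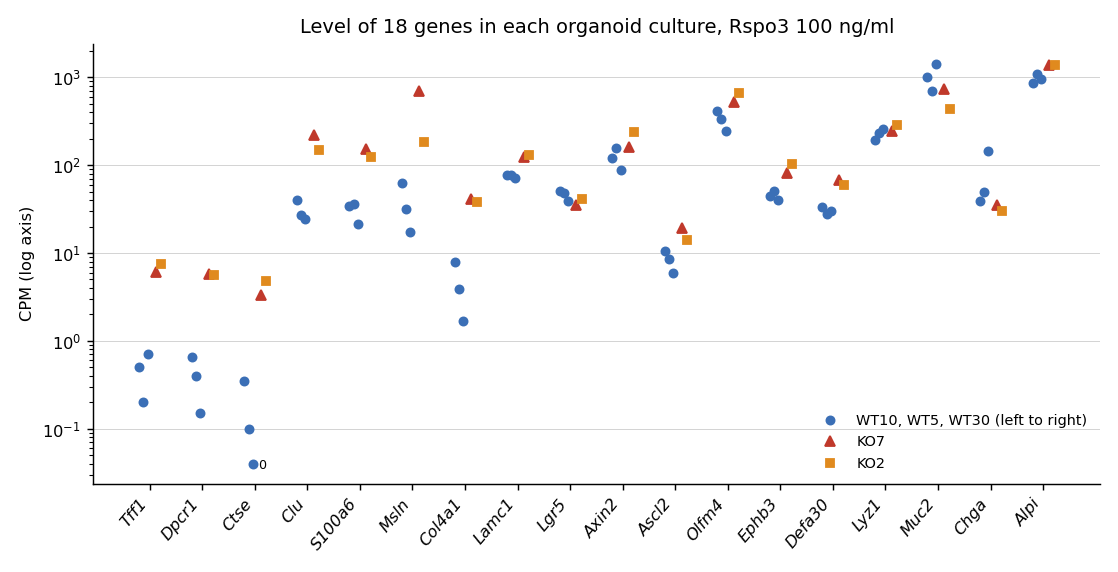
CPM on a log axis of 18 genes in the 5 libraries at 100 ng/ml Rspo3, each point 1 culture, with WTs as blue circles and the KOs as a red triangle (KO7) and an orange square (KO2), and a value of 0 drawn at the foot and marked. Clu, S100a6, Msln and Col4a1 show both KOs above the 3 WTs, while Lgr5, Lyz1 and Muc2 overlap.

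Basement membrane genes had both KOs above the WTs for most tested members. Of 39 genes outside X and Y 26 were tested, and both KOs lay above all WTs for 16 (61.5%) and below for 2 (7.69%), beside 17.3% above and 12.5% below over all genes, with a median difference of 0.64, or 0.36 without KO7 and 0.25 when every member with a nonzero value was kept. No member was called in the 5 libraries, 13 were higher and 0 lower at an unadjusted p under 0.05, and the 30-library fit with the block called 6 higher and 0 lower, beside 1.08% and 0.215% of all genes. The type IV collagen chains of Col4a1 and Col4a2, which share a promoter region and form one trimer, had similar differences. Col4a1 was at 7.95, 3.85 and 1.7 CPM in the WTs and 41.2 and 37.6 CPM in the KOs, a difference of 3.04 (SE 0.47, limma adjusted p = 0.154, and 0.00642 with 30 libraries and the block). For Col4a2 the levels were 7.95, 5.85 and 1.95 CPM against 55.1 and 35.2 CPM. Both KOs were more than 4 times the highest WT in each gene. Lamc1, the laminin gamma chain common to most basement membranes, was at 78.3, 77.8 and 71.6 CPM in the WTs and 125 and 131 CPM in the KOs, a smaller difference of 0.75 but with little spread (SE 0.09, limma adjusted p = 0.116, and 0.0209 with 30 libraries and the block). Lama5, the laminin alpha chain of gut epithelium, was at 194, 159 and 122 CPM in the WTs and 883 and 230 CPM in the KOs, so that KO7 stood apart and KO2 lay just above WT10. Summed over the list, the level was 1149 to 1339 CPM in the WTs, 2700 CPM in KO7 and 1652 CPM in KO2.

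**Figure D3:**
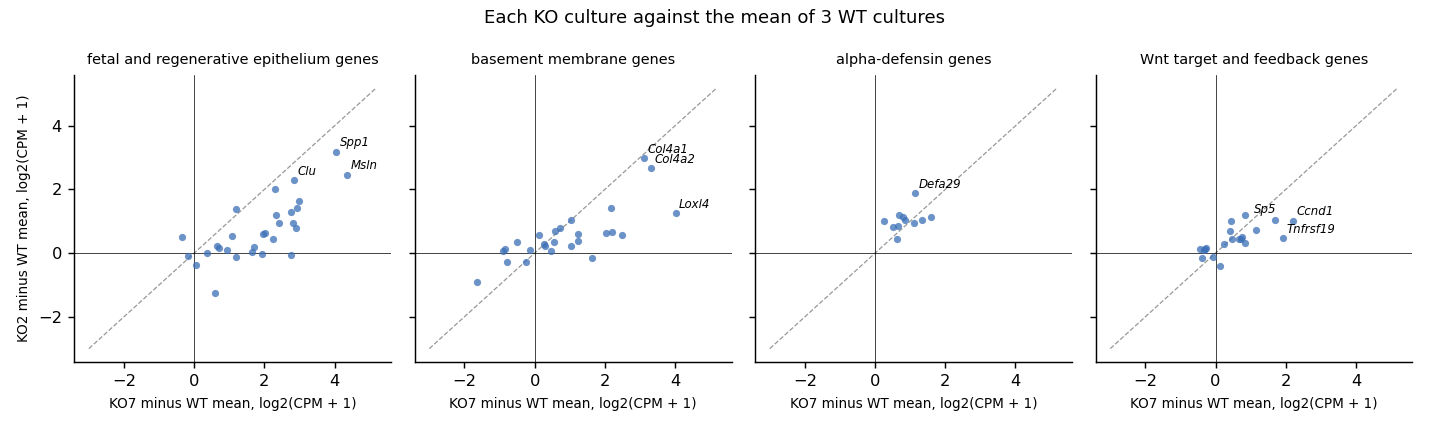
Difference of KO7 (horizontal) and of KO2 (vertical) from the mean of the 3 WTs, in log2(CPM + 1), for the tested members of 4 gene lists, with the dashed line marking equal differences. Fetal and basement membrane genes spread below the line, with list medians of 1.96 and 0.65 for KO7 and 0.55 and 0.36 for KO2, whereas alpha-defensins lie about it (0.78 and 1.04).

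Targets of Wnt signalling leaned upwards in KO organoids under this medium, without a call. Of 27 listed genes, 20 were tested and 0 were called, 12 had both KOs above all WTs and 0 below, beside 17.3% above and 12.5% below over all genes, and the median difference was 0.55, or 0.29 when every member with a nonzero value was kept. The 30-library fit with the block called none of them. Axin2, a scaffold of the beta-catenin destruction complex and feedback target of the pathway, was at 121, 157 and 88.2 CPM in the WTs and 162 and 240 CPM in the KOs. KO7 lay just above WT5, the highest WT, and the difference of 0.73 was not significant (SE 0.27, limma adjusted p = 0.397). Sp5, the zinc finger factor whose promoter is printed above, was at 4, 3.65 and 2.5 CPM against 13.1 and 7.85 CPM, and Ephb3, a receptor that positions cells along the crypt, at 44.4, 50.6 and 40.6 against 81.7 and 104 CPM (limma adjusted p = 0.150). Ccnd1, coding for cyclin D1, was at 107, 106 and 51.3 CPM in the WTs and 386 and 170 CPM in the KOs, with KO7 more than 2 times KO2.

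None of the genes of the receptor machinery was called in the 5 libraries. Lgr4, the closest relative of Lgr5 and broadly expressed in the epithelium, was at 267, 265 and 256 CPM in the WTs and 264 and 310 CPM in the KOs (difference 0.12, limma adjusted p = 0.681). Lgr6 was at most 0.05 CPM in every library, as were Rspo1, Rspo2 and Rspo3 themselves. Of the ligases that Rspondins hold back, Rnf43 was at 112, 115 and 86.0 CPM in the WTs and 187 and 130 CPM in the KOs, and Znrf3 at 51.9, 55.8 and 54.1 CPM against 44.3 and 60.5 CPM. Only Rnf43 of this pair had non-overlapping groups. Over the list of receptors and ligands of Rspondin, 8 members were tested, 2 had both KOs above the WTs (25%, against 17.3% of all genes) and the median was 0.15, or 0.03 without WT5 and -0.03 without KO2. For Wnt ligands and their receptors the median over 19 tested genes was -0.07, with 6 above and 2 below, and it was 0.13 without KO7 and -0.27 without KO2. The 30-library fit with the block called 1 of the 19 higher and 0 lower, beside 1.08% and 0.215% of all genes.

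Stem cell markers did not move as one. Over 20 tested genes the median was 0.35, with 9 above, 3 below and 0 called, beside 17.3% above and 12.5% below over all genes. The median was 0.19 without WT30 and 0.16 without KO2. At an unadjusted limma p under 0.05, 7 of the 20 were higher and 3 lower, beside 7.69% and 3.85% of all genes. Olfm4, a secreted glycoprotein of crypt base stem cells, was at 411, 339 and 242 CPM in the WTs and 517 and 667 CPM in the KOs (difference 0.86, limma adjusted p = 0.296). Ascl2, the transcription factor of stem cell fate, was at 10.7, 8.55 and 5.9 CPM against 19.5 and 14.1 CPM, so that both genes had KOs above all WTs. Smoc2, a matricellular stem cell marker, was at 177, 260 and 167 CPM in the WTs and 139 and 250 CPM in the KOs and overlapped. Cell cycle genes had a median of 0.06 over 40 tested, which combined -0.24 in KO7 with 0.34 in KO2. Mki67, the proliferation antigen, was at 381 and 605 CPM in KO7 and KO2 around WT values of 570, 549 and 549 CPM. Histone genes showed the same split, with medians of -0.30 and 0.45 over 65 genes.

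Alpha-defensins, the antimicrobial peptides of Paneth cells, had both KOs above the WTs for all tested members but 1. The table held 39 such genes and 11 were tested, 3 of them through the KO libraries alone, and both KOs lay above all WTs for 10 (90.9%, against 17.3% of all genes), with a median difference of 0.94, or 0.44 when every member with a nonzero value was kept, and medians of 0.78 in KO7 and 1.04 in KO2. For the 3 that passed through the KO libraries alone, the filter on low values already required both KOs to lie above all WTs. None of the 11 was called in the 5 libraries, 10 were higher at an unadjusted p under 0.05, and the 30-library fit with the block called 2 higher, beside 1.08% of all genes. Defa30 was at 33.4, 27.9 and 30.3 CPM in the WTs and 67.2 and 59.6 CPM in the KOs, a difference of 1.03 (SE 0.12, limma adjusted p = 0.105). Defa17 was at 11.7, 10.7 and 12.3 CPM against 21.5 and 24.8 CPM, whereas Defa24 overlapped at 125, 99.3 and 180 CPM in the WTs and 200 and 177 CPM in the KOs. These genes are near copies of one another in a cluster, so how reads were shared among them is uncertain. Other Paneth cell genes had a median of 0.23 over 23 tested genes, with 4 above (17.4%, against 17.3% of all genes) and 1 below, and the median was 0.52 without KO2 and 0.15 without KO7. The 30-library fit with the block called 2 of the 23 higher and 0 lower, beside 1.08% and 0.215% of all genes. Lyz1, coding for lysozyme, was at 195, 231 and 256 CPM in the WTs and 247 and 287 CPM in the KOs and overlapped. Mmp7, the matrix metalloprotease that processes defensins, was at 1.4, 0.85 and 1.1 CPM against 9.4 and 2.5 CPM, and Ang4, a microbicidal angiogenin, at 5.2, 5.2 and 6.1 CPM against 41.5 and 11.4 CPM, with KO7 the highest in each.

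Among differentiated types, enteroendocrine genes leaned the other way. Of 28 tested genes, 10 had both KOs below all WTs (35.7%, against 12.5% of all genes), 0 had them above, 0 were called, 3 were lower at an unadjusted p under 0.05, and the median was -0.49, or -0.16 without WT30. Chga, the granule protein chromogranin A, was at 38.7, 49.0 and 146 CPM in WT10, WT5 and WT30 and 34.8 and 29.9 CPM in KO7 and KO2. WT30 stood apart and the KOs lay just below the other WTs (limma adjusted p = 0.520). Gip, a hormone that promotes insulin release, was at 14.4, 15 and 51.8 CPM against 12.4 and 6.95 CPM, and Cck, cholecystokinin, at 37.7, 28.7 and 77.9 CPM against 49.2 and 15.9 CPM, while Neurog3, the factor that starts the lineage, was at 7.75, 6 and 9.8 CPM in the WTs and 8.25 and 12.1 CPM in the KOs. Tuft cell genes were near 0 in median (-0.04 over 17 tested), and Dclk1 of tuft cells was at 0.45, 1.85 and 7.8 CPM in the WTs and 0.65 and 1.2 CPM in the KOs, again with WT30 apart. Goblet cell genes had a median of -0.05 over 24, or -0.19 without WT5 and 0.16 without WT30, with Muc2, the gel-forming mucin, at 1003, 700 and 1419 CPM in the WTs and 737 and 434 CPM in the KOs, and Tff3, the intestinal trefoil peptide in one cluster with Tff1 on chromosome 17, at 221, 209 and 278 CPM against 278 and 211 CPM. Absorptive enterocyte genes had a median of -0.10 over 53 tested, with 10 above (18.9%) and 7 below (13.2%), near the 17.3% and 12.5% of all genes, and it was 0.03 without WT30 and 0.13 without KO2. Within them Alpi, intestinal alkaline phosphatase, was at 858, 1085 and 963 CPM in the WTs and 1399 and 1384 CPM in the KOs, and Sis, sucrase-isomaltase, at 3137, 1727 and 3815 CPM against 3014 and 1103 CPM. Apoa1, an apolipoprotein of chylomicrons, was at 150, 89.2 and 89.4 CPM against 276 and 277 CPM. Alpi and Apoa1 thus had both KOs above all WTs, while Sis overlapped, with WT5 and KO2 the lowest.

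Gastric markers were rare in these organoids. Only 3 of 13 listed genes were tested, 2 of them through the KO libraries alone, and all 3 had both KOs above the WTs, with Tff1 called. For those 2 the filter on low values already required both KOs to lie above all WTs. Gkn1, a gastric mucus protein, was at 0.15, 0.10 and 0.05 CPM in the WTs and 1.15 and 2.15 CPM in the KOs, and Muc6, a gland mucin, at 5.05, 6.35 and 4.75 CPM against 10.5 and 9.2 CPM. The list sum was 7.00 to 8.05 CPM in the WTs and 22.8 and 22.4 CPM in the KOs.

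The other lists held no call in the 5 libraries, and their counts are to be read beside the shares of 17.3% above and 12.5% below over all genes. The 30-library fit with the block called 10 solute carriers higher and 1 lower, beside 1.08% and 0.215% of all genes. Higher and lower calls were 2 and 0 for glutathione S-transferases, 2 and 1 for cytochrome P450 and for BMP genes, and 1 and 2 for host defence genes. Interferon-induced, cholesterol and regional identity lists had 1 higher each, and imprinted genes 1 lower. Cytosolic ribosomal protein genes had both KOs below all WTs for 37 of 81 (45.7%) and above for 0, by a small median of -0.15. Solute carriers had 70 of 248 above (28.2%) and 19 below, with a median of 0.10, and MHC genes 6 of 15 above and 0 below with 0.24, or 0.09 without KO7. Glutathione S-transferases gave a median of 0.14 with 8 of 23 above, cytochrome P450 genes 0.20 with 11 of 42 above, and cholesterol synthesis genes 0.20 with 3 of 24 above (12.5%). The KOs went opposite ways in the glutathione S-transferases, at -0.06 in KO7 and 0.37 in KO2, and in the cholesterol genes, at -0.07 and 0.57. The glutathione S-transferase median was also 0.29 without WT5 and 0.05 without WT30. Medians lay between -0.16 and 0.12 for epithelial markers, genes of the Notch and BMP pathways, interferon-induced, host defence, p53 target, immediate early, regional identity, claudin, mitochondrial and imprinted genes, and for the mesenchymal, immune, endothelial and neural markers. Some of these medians combined KOs that went opposite ways. In KO7 and KO2 they were 0.47 and -0.35 for host defence, 0.20 and -0.26 for interferon-induced, and 0.35 and -0.16 for immediate early genes. Only 2 Hox genes were tested, both below the WTs in both KOs, with a median of -1.21 that was -0.49 without KO7 and -1.94 without KO2.

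**Figure D4:**
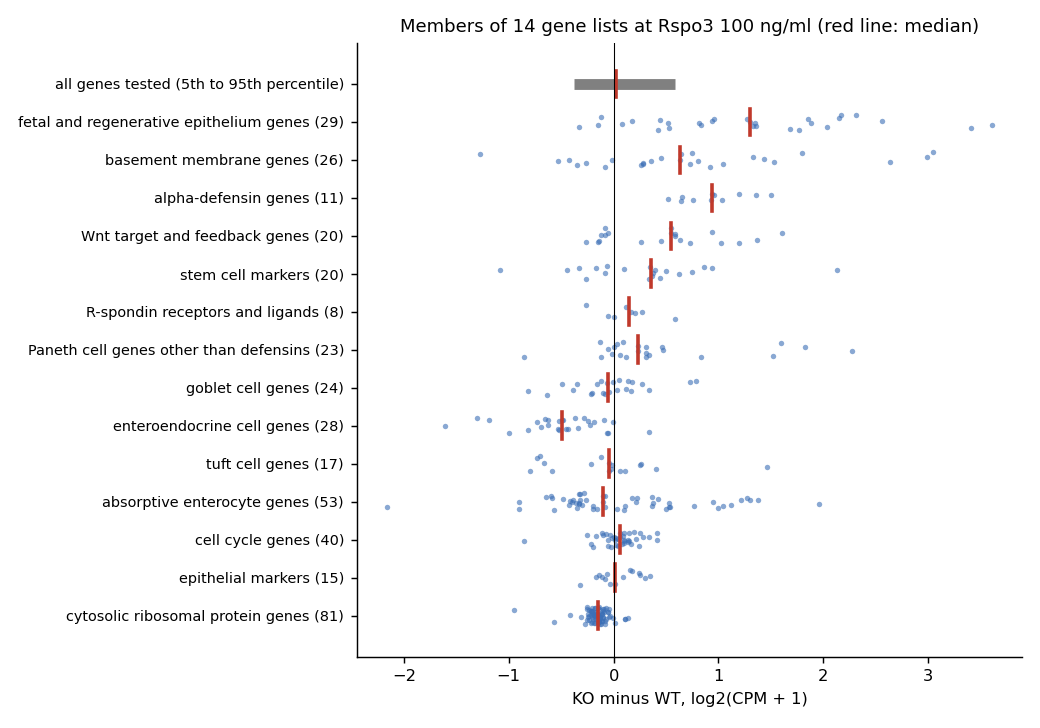
KO minus WT in log2(CPM + 1) for the tested members of 14 gene lists, each point a gene, the red line the list median and the number of genes in brackets, beside the range from the 5th to the 95th percentile of all genes tested. Medians run from 1.30 for fetal and regenerative genes to -0.49 for enteroendocrine genes, against 0.02 for all genes.

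The same 5 cultures were grown in the other media, so their comparisons share every culture with this one and are set beside it as values. Outside X and Y, limma called 4 genes higher (0.0254%) and 1 lower (0.00635%) at 5 ng/ml Rspo3, 6 higher (0.0346%) and 5 lower (0.0288%) at 100 ng/ml Rspo2, 0 (0%) in either direction at 100 ng/ml Rspo1, 1 in each direction (0.00623%) at 5 ng/ml Rspo1, and 43 higher (0.261%) and 15 lower (0.0911%) at 5 ng/ml Rspo2. Over all 6 media, both KOs were above all WTs in 6 for Tff1, Ctse, Clu, Msln, Col4a1 and Col4a2, and in 5 for Dpcr1, where the exception was 100 ng/ml Rspo2 with KO7 at 1.10 CPM beside WT10 at 1.25 CPM. S100a6 was above in 5 media, Spp1 and Ly6a in 4 and Lamc1 in 3, with lowest differences of 0.21, 0.14, 0.06 and -0.04. These genes were picked with their values at 100 ng/ml Rspo3 known, and the cultures recur in every medium. Agreement between media is thus partly built in, and the share of all genes above in as many media was not counted. The Tff1 difference ran from 1.75 to 3.42 over the media and that of Clu from 1.25 to 2.92. List medians, over members tested at 100 ng/ml Rspo3, differed between media too. That of fetal and regenerative genes ran from 0.20 (Rspo1 5 ng/ml) to 1.30 (Rspo3 100 ng/ml). That of basement membrane genes ran from 0.10 (Rspo1 100 ng/ml) to 0.64 (Rspo3 100 ng/ml). Rspo2 at 5 ng/ml came close to the highest value in both lists, with 1.21 and 0.61. The Wnt target and stem cell lists changed sign, from -0.37 and -0.48 at 100 ng/ml Rspo2 to 1.30 and 1.10 at 5 ng/ml Rspo2. Lgr5 differed by -0.27 at 100 ng/ml Rspo3, by -1.97 at 100 ng/ml Rspo2 and by -0.81 at 100 ng/ml Rspo1, but by 1.54 at 5 ng/ml Rspo2, where the groups overlapped. Its level in WT10, WT5 and WT30 was 50.7, 48.9 and 39.4 CPM with Rspo3 at 100 ng/ml, 379, 247 and 458 CPM with Rspo2 at that dose, and 0.35, 0.60 and 0.45 CPM with Rspo3 at 5 ng/ml. In KO7 and KO2 it was 104 and 75 CPM with Rspo2 at 100 ng/ml, beside 35.2 and 41.3 CPM with Rspo3 at 100 ng/ml. Axin2 differed by 0.73, -0.41, 0.20 and 0.00 with Rspo3 100, Rspo2 100, Rspo1 100 and Rspo3 5 ng/ml in turn, and Olfm4 by 0.86, -0.53, 0.43 and 1.02. At 5 ng/ml Rspo1 the differences were 0.46 and 1.59. They were largest at 5 ng/ml Rspo2, 2.62 for Axin2 and 2.61 for Olfm4, with both KOs above all WTs, where the Wnt target list had its highest median, 1.30.

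Whether the KO minus WT difference changed between media was tested as an interaction. Genotype and sex cannot be told apart in this test either. The limma fit found 0 genes (0%) for Rspo3 against Rspo2 at 100 ng/ml, 0 against Rspo1 at 100 ng/ml and 0 against Rspo3 at 5 ng/ml, of 17800, 17732 and 17272 genes tested outside X and Y. At an unadjusted p under 0.05 there were 466, 309 and 643 genes. Since the same cultures stood in both media, culture was also fitted as a block, which gave 0 calls again and 1397 (7.85%), 1336 (7.53%) and 1949 genes (11.3%) at an unadjusted p under 0.05, with smallest adjusted p-values in limma of 0.103, 0.232 and 0.177. For Lgr5 the KO minus WT difference was 1.70 higher with Rspo3 than with Rspo2 (SE 0.35, limma adjusted p = 1.00, and 0.294 with the block). Wnt target genes had a median difference of 0.79 over 22 genes, with 15 higher and 0 lower at an unadjusted p under 0.05 with the block, and alpha-defensins one of 1.28 over 14 genes, with 14 higher, against 0.05 over all genes with 1067 higher and 330 lower. In both lists the median KO minus WT difference was positive with Rspo3 and negative with Rspo2. It was 0.55 and -0.37 for Wnt targets and 0.94 and -0.50 for alpha-defensins. By the same measure, fetal and regenerative genes had 17 of 29 higher and 0 lower against Rspo3 at 5 ng/ml. All genes there had 1077 higher and 872 lower. Against Rspo2 and Rspo1 at 100 ng/ml the fetal list had 10 and 11 of 30 higher, with 0 and 1 lower. Basement membrane genes had 10 and 11 of 27 higher and 0 lower, but 5 higher and 2 lower of 27 against Rspo3 at 5 ng/ml. All genes against Rspo1 had 1056 higher and 280 lower. Wnt targets had 3 of 21 higher against Rspo1 and 8 of 20 against Rspo3 at 5 ng/ml, with 0 lower. Alpha-defensins had 8 of 12 and 3 of 11 higher in turn, with 0 lower. Other Paneth cell genes had 14 of 25 higher and 0 lower against Rspo2. Goblet cell genes had 2 higher and 15 lower of 24 against Rspo3 at 5 ng/ml. Absorptive enterocyte genes had 1 higher and 15 lower of 53 against Rspo1.

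The genes with the smallest interaction p did not pass the adjustment. Named here are genes among the 5 smallest in each medium. The KO minus WT difference at 100 ng/ml Rspo3 is given first and that in the other medium second. For Rspo3 against Rspo2 at 100 ng/ml they included Defa30 (1.03 and -0.62), Defa26 (1.19 and -0.47) and A930009A15Rik inside the Lgr5 region (-1.48 and -3.65). Against Rspo1 they included Slc6a9, a glycine transporter (0.81 and -0.47), Ccdc24, which overlaps it on the other strand so that their reads cannot be told apart (0.79 and -0.45), and Pck2, a mitochondrial enzyme of gluconeogenesis (0.26 and -0.59). Against Rspo3 at 5 ng/ml, the smallest p was that of Lamc1, with 0.75 at 100 ng/ml and 0.12 at 5 ng/ml. Its levels at the low dose were 70.95, 73.90 and 71.65 CPM in the WTs and 76.35 and 80.95 CPM in the KOs, below the KO values at the high dose given above. Mras, a small GTPase, came next (1.11 and 0.12), followed by the transporters Slc10a5 (-0.61 and 0.14) and Slc7a5 (0.37 and -0.32) and the dehydrogenase Dhrs11 (-0.45 and 0.14).

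**Figure D5:**
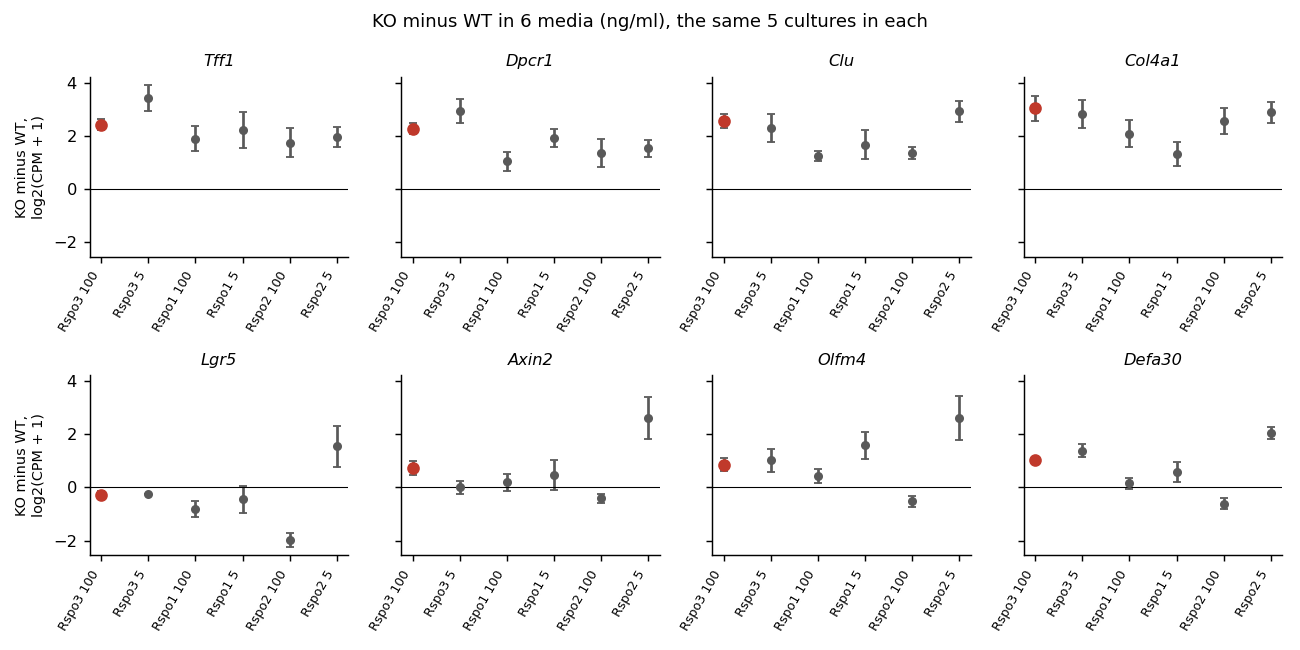
KO minus WT in log2(CPM + 1) for 8 genes in 6 media, each named by its Rspondin and the dose in ng/ml, with bars of 1 standard error from limma and 100 ng/ml Rspo3 in red, where Lgr5 at Rspo3 5 was too low to be tested and has no bar. Tff1, Dpcr1, Clu and Col4a1 lie above 0 in every medium, whereas Lgr5, Axin2, Olfm4 and Defa30 change sign between media.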

How the data were processed

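Organoid RNA had been extracted, depleted of ribosomal RNA and sequenced as paired ends. The authors trimmed reads (Trimmomatic 0.36), aligned them with STAR 2.5.3a to GRCm38.p4, counted them per Ensembl gene with HTSeq 0.9.1 and deposited CPM, the reads of a gene scaled to the library's total, rounded up in steps of 0.05. Depth was read from these steps, but whole reads could not be recovered because 1 read was worth less than 1 step. Of the genes, 52489 of 52636 matched the annotation used for positions, and 0 sample columns were left unmapped. The 15 sorted-cell libraries were not used.

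Groups came from the labels. Genes that reached 1 CPM in 2 or more of the 5 libraries (17220, with 437 on X, 9 on Y and 43 without a chromosome) were fitted as log2(CPM + 1) with limma 3.58.1 in R 4.3.3, empirical Bayes moderated. P-values were two-sided and adjusted by Benjamini-Hochberg over all of them, with a call at 0.05. A fold change on this scale understates that of low genes. Of the 12 calls, 4 lay on X and 5 on Y. The rule named the called genes outside X and Y with an annotated symbol and no overlap between groups, Lgr5, the 5 smallest interaction p-values per medium, and up to 4 defining members of a list. Members, the 37 lists and the tests were chosen with earlier results of these data known. Alternatives were a pseudocount of 0.1, no filter, a mean of at least 10 CPM, TMM scaling, all 30 organoid libraries with and without a culture block, X and Y left out, a fold over 1.5, a rate of 0.1, and each culture left out in turn. The fit was tested on simulated data of 17220 genes, where it recovered 66.0% of 200 genes changed by 1 and 99.5% of those changed by 2 on the log2 scale. It also called 8 and 12 unchanged genes there. The simulated noise was normal, with the spread fitted here and equal in KO and WT. These shares check the code and do not give the power of the real comparison, where Clu and Spp1 differed by more than 2 without a call. For interactions the cultures pair the libraries: deviations of the same culture in 2 media correlated at 0.322 to 0.689. Promoters were RefSeq windows of GRCm38.p6.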

Additional observations from a re-analysis of the deposited data

How the results depend on the processing

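No called gene and no tested value past the threshold changed direction under the alternatives run, but the number of genes called moved. With 3 genes higher and 0 lower in the limma fit of 5 libraries, there were 0 higher with a pseudocount of 0.1, with a mean of at least 10 CPM and with X and Y left out before the fit, 1 when every gene with a nonzero value was tested, 3 with TMM scaling or a fold over 1.5, and 6 higher and 1 lower at a rate of 0.1. The 1 gene called with every nonzero gene tested was not Tff1, Dpcr1 or Gm15318 (limma adjusted p = 0.160, 0.160 and 0.205). All 30 organoid libraries gave 132 higher and 24 lower without a block, and 181 and 36 with culture as a replicate block (a random effect, correlation 0.342). Both of these fits rest on the same 5 cultures, and their p-values may be too small. Leaving out each culture gave 0 to 207 higher and 0 to 60 lower. The cause of these shifts was not tested. No paired analysis was possible because KO and WT cultures share no number. The interactions stayed at 0 calls with the replicate block and under the other alternatives, except for Rspo3 at 5 ng/ml, where leaving out a culture gave 0 to 3. Only 2 KO cultures stood behind each value, genotype was aligned with sex, and values under 1 CPM, as in the WTs for the called genes, rest on few reads.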
